A study of Caenorhabditis elegans with 6 samples.

Results

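Chromatin modifiers and remodellers are the enzymes and reader proteins that write, remove or bind histone marks, or move nucleosomes. Their transcripts were measured in sorted coelomocytes, the scavenger cells of the body cavity of Caenorhabditis elegans. The list held 51 public gene names, and an identifier of the count table carried the name for 50 of them, out of 21882 genes in the table. After the filter on low counts 49 of the 50 remained among the 9112 genes tested, and set-32 did not. The name swsn-8 was not found among the symbols used here. The ARID subunit gene let-526, for which swsn-8 is another name, is given separately and is not counted.

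All libraries came from L3 larvae that carried glp-4(bn2), a temperature-sensitive allele that leaves animals without a germline when they are grown from the egg at the restrictive temperature. All animals also carried barIs177, in which the coelomocyte promoter of unc-122 drives the GFP by which the cells were sorted. The control group (WT_CC, strain BAT2087) had the reporter alone. The CHE-1 group (Repro_CC, strain BAT2088) also carried barIs115, in which the unc-122 promoter (or one labelled coel) drives FLAG-tagged CHE-1, beside an mCherry marker under the myo-2 promoter. CHE-1 is the zinc finger factor that specifies the ASE gustatory neurons. Each group had 3 libraries of polyadenylated RNA from 1 strain.

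Histone marks are laid down by methyltransferases and acetyltransferases, taken off by demethylases and deacetylases, and read by proteins with chromo, bromo, PHD or MBT domains. Remodelling ATPases such as those of NuRD, SWI/SNF and ISWI slide or evict nucleosomes. In C. elegans several of these genes are known from genetics. The MES proteins are known for their role in the germline, and the synMuv B genes for keeping vulval and germline genes silent. MRG-1 is known from germ cells that are challenged with a neuronal factor. The comparison asks which of these genes differ in transcript level when coelomocytes carry the CHE-1 transgene.

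Library totals ran from 21353072 to 58325279 counts. Counts of che-1 were 3, 0 and 1 without the transgene and 10744, 50917 and 42227 with it, as the labels have it. The gene unc-122 itself was at 1668 ± 391 CPM in control against 1360 ± 187 CPM with CHE-1 (a log2 difference of -0.29, SE 0.21, adjusted p = 0.741). All 7 coelomocyte marker genes had counts, and their summed level was 15923 to 21348 CPM (counts scaled to a common library size, with TMM factors) in control and 4309 to 6234 CPM in CHE-1 libraries. A list of 14 germline genes summed to 29.4 to 39.9 CPM in control and 21.8 to 63.6 CPM in CHE-1 libraries, and him-3, nos-2, msp-31 and spe-11 had no count in any library. By edgeR's quasi-likelihood test at an adjusted p under 0.05, 4 of the 7 coelomocyte genes were lower and 0 higher. The 10 neuronal genes summed to 728 to 814 and 3784 to 4283 CPM, with a median log2 fold change of 1.28. By the same test 4 of them were higher (against 3.37% of all tested genes) and 1 was lower (against 1.69%). The 8 body wall muscle genes summed to 36157 to 37875 and 17025 to 24945 CPM. Nearly all of the muscle sum was unc-54, which fell (35947 ± 1104 against 19987 ± 4189 CPM), while mup-2 rose (166 ± 25.8 against 1024 ± 145 CPM) and the median log2 fold change of the 7 muscle genes tested was 0.48. The 8 intestinal genes summed to 224 to 306 and 212 to 920 CPM, the 6 pharyngeal genes to 48.5 to 515.6 and 28.5 to 106.3 CPM, and the 8 hypodermal genes, of which bli-1 had no count, to 185 to 248 and 147 to 220 CPM. The 15 cell division genes summed to 81.7 to 153 and 63.3 to 181.6 CPM. The part of other cells in the values that follow was not tested, and in such bulk samples fewer cells of a type and less RNA per cell cannot be told apart.

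No chromatin gene of the list passed the test between the groups, although hda-4, the most abundant, was lower in every CHE-1 library and was called by other tools. Of the 49 tested, 0 were called by edgeR's quasi-likelihood test at an adjusted p under 0.05, against 5.06% of all tested genes, and 2 (hda-4 and let-418) had an unadjusted p under 0.05, against 14.2% of all tested genes. DESeq2 called 1, the class IIa deacetylase gene hda-4, as lower, against 11.3% of all genes with an adjusted p (7.08% higher, 4.26% lower). In limma-voom the call was again hda-4 alone, as lower, against 8.93% of all tested genes (5.71% higher, 3.23% lower). With upper-quartile factors edgeR also called hda-4 alone, against 5.19% (3.04% higher, 2.15% lower), and with adjusted deviances it called 0 members, against 11.5% (7.63% higher, 3.88% lower). The log2 fold change (CHE-1 over control) was positive for 27 and negative for 22, with a median of 0.03 and quartiles of -0.24 and 0.36. Over all tested genes the median was 0.04 and the quartiles were -0.55 and 0.79.

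**Figure D1:**
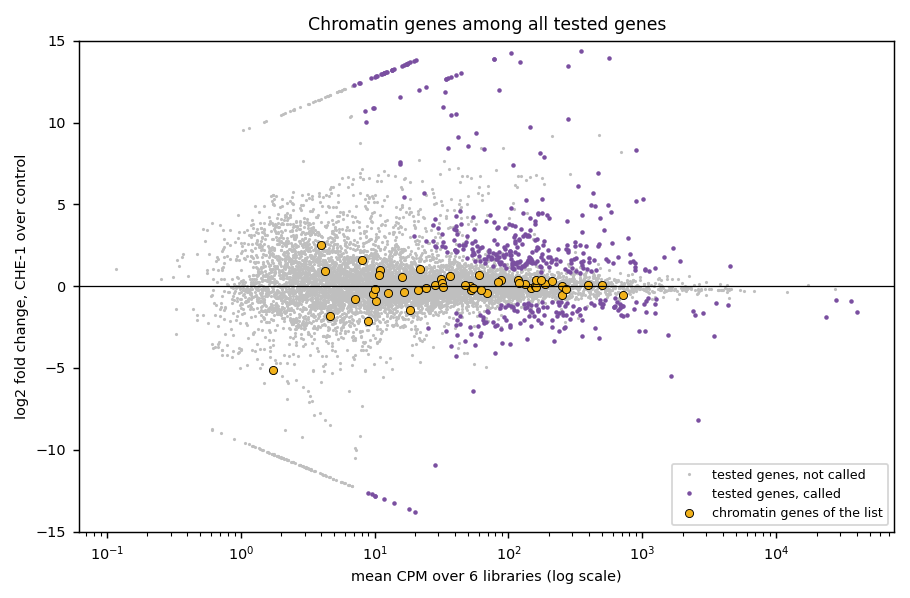
Log2 fold change (CHE-1 over control) against the mean CPM over the 6 libraries (log axis) for all 9112 tested genes. Grey points were not called, purple points were called by edgeR, and the 49 yellow points are the tested chromatin genes, none of them called, with their spread widest at the low end.

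The precision of this comparison followed the level. An approximate 95% interval of the log2 fold change lay within a 2-fold change in either direction for 20 of the 49 genes, and for 12.4% of all tested genes. Of the 16 members with a mean above 100 CPM over the 6 libraries, 15 had such an interval, and the exception was let-418. Among all tested genes at that level 52.0% had such an interval, and 18.1% were called. Of the 17 members between 20 and 100 CPM it held for 5, which were jmjd-2, set-2, ash-2, wdr-5.1 and isw-1, and of the 16 under 20 CPM for 0. Among all tested genes under 20 CPM 0% had such an interval, and 0.872% were called. The median SE of these 16 members was 1.73, at which even a change of several fold was not detectable. The smallest SEs among them were 0.78 (lin-61), 0.80 (hpl-2) and 0.84 (hda-2).

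**Figure D2:**
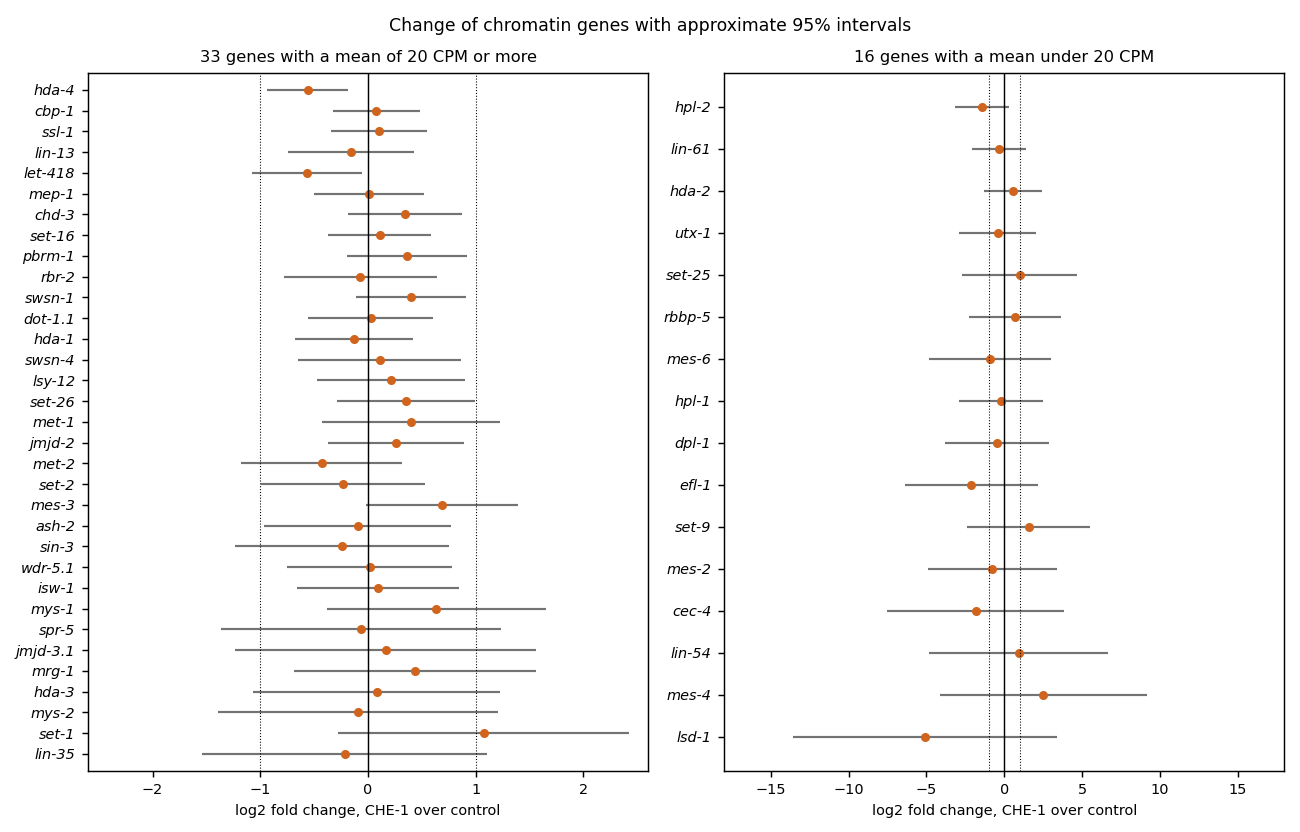
Log2 fold change (CHE-1 over control, points) with approximate 95% intervals (lines) for the 49 tested genes, ordered by mean CPM from top to bottom, with a wider axis in the right panel. Dotted lines mark a 2-fold change; only the intervals of hda-4 and let-418 leave out 0.

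The control and CHE-1 libraries did not overlap for 6 of the 49 genes (12.2%), against 23.4% of all tested genes. Higher in all CHE-1 libraries were mes-3, swsn-1 and set-9, 3 genes against 13% of all tested genes, and lower were hda-4, let-418 and hpl-2, 3 genes against 10.3%. Summed over the 50 genes, the level was 4955 ± 465 CPM in control against 4840 ± 201 CPM with CHE-1 (SD, n = 3 each), with overlapping groups.

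Levels of different genes were compared per kb of merged exons, in control coelomocytes. The median over the 50 genes was 14.2 CPM per kb, against 11.02 for all tested genes, and 32 of the 50 lay above the latter. Of the members 17 were above 20 CPM per kb, 25 were between 5 and 20, and 8 were under 5. The highest was hda-4 at 236 ± 17.95 CPM per kb, above 95.9% of all tested genes. It was followed by the class I deacetylase gene hda-1 at 83.6 ± 17.5, the zinc finger gene mep-1 at 82.1 ± 18.3 and the CBP/p300 acetyltransferase gene cbp-1 at 67.7 ± 7.72 CPM per kb. Every control library had more hda-4 per kb than any had of hda-1. From mep-1 downwards each gene's range over the control libraries overlapped that of the gene above it, so the order among these neighbours was not resolved. The lowest 8 were the H3K27 demethylase gene utx-1, mes-2, set-25, lin-54, lsd-1, set-9, mes-4 and set-32.

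**Figure D3:**
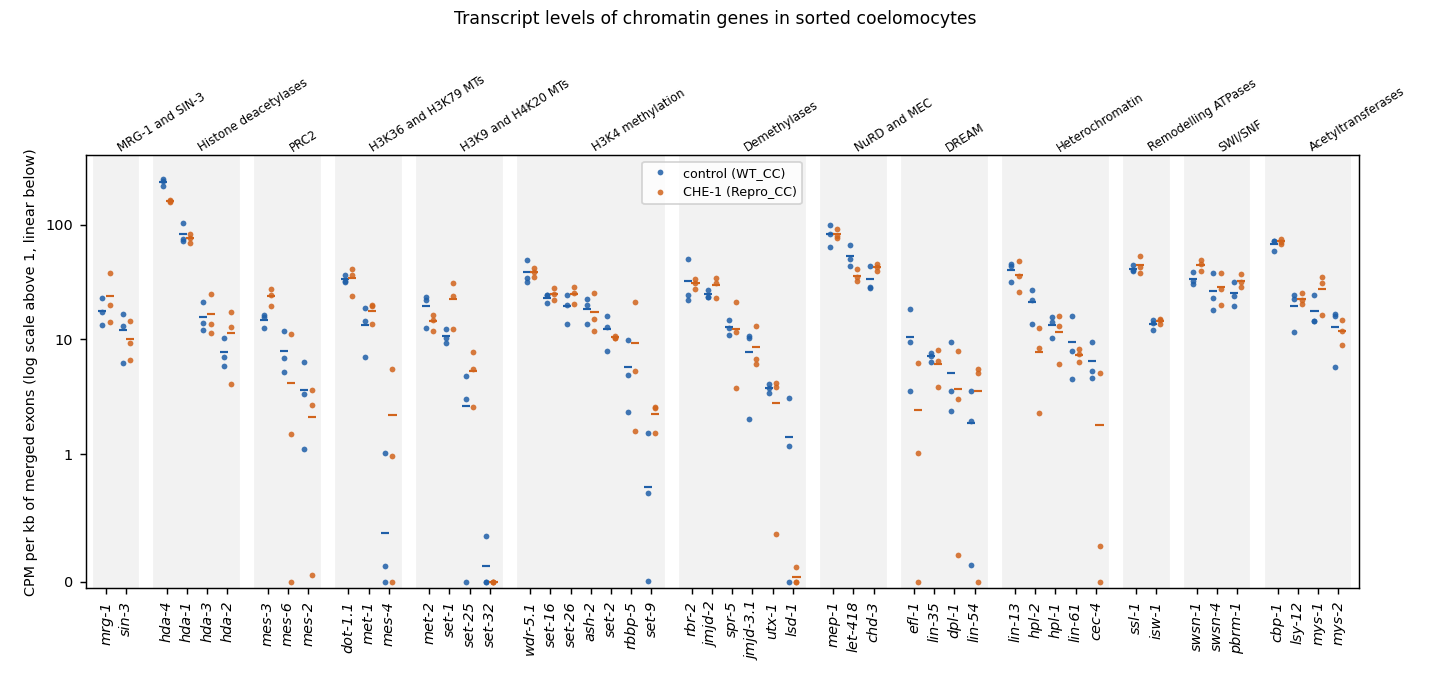
CPM per kb of merged exons of the 50 chromatin genes by group, in each control (blue) and CHE-1 (orange) library, with the mean as a bar; the axis is logarithmic above 1 and linear below. The deacetylase gene hda-4 stands highest, and set-32, mes-4, set-9 and lsd-1 lie at the bottom with libraries at or near 0.

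The histone deacetylases remove acetyl groups from histone tails. The gene hda-4 (WBGene00001837, WBcel235 chromosome X, 16729559 to 16744767, plus strand) encodes a class IIa enzyme of the kind that binds MEF2 factors. It was at 909, 783 and 874 CPM in the control libraries and at 567, 593 and 581 CPM in the CHE-1 libraries. Every CHE-1 library was below every control library, and the spread among the CHE-1 libraries was small. Its log2 fold change was -0.56 (SE 0.17, interval -0.94 to -0.18, adjusted p = 0.106 by edgeR), a ratio of 0.678. The adjusted p was 4.46e-05 in DESeq2, 0.0329 in limma-voom, 0.0379 in edgeR with upper-quartile factors and 0.0736 in edgeR with adjusted deviances. It ran from 4.46e-05 to 0.338 over all alternatives, and the log2 fold change from -0.70 to -0.54. Relative to the median of all tested genes the log2 fold change was -0.60 with TMM and with upper-quartile factors alike. Over the alternatives this difference ran from -0.70 (without control library 1) to -0.49 (DESeq2).

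The class I enzymes were lower in level than hda-4. The NuRD deacetylase gene hda-1 was at 133, 191 and 138 CPM in control against 141, 153 and 128 CPM with CHE-1, and the groups overlapped. Its paralog hda-2 was at 11.8, 17.1 and 9.86 CPM in control against 6.84, 21.6 and 28.9 CPM with CHE-1, a range that enclosed the control values (log2 fold change 0.57, SE 0.84). The paralog hda-3 was at 27.3 ± 8.49 and 28.8 ± 12.3 CPM. Per kb, hda-1 exceeded hda-3 by 4.86 to 5.96 times in the control libraries. The 3 class I genes summed to 194 ± 44.1 CPM in control against 188.5 ± 18.4 CPM with CHE-1, so the lower sum of all 4 deacetylase genes in the CHE-1 libraries (768.5 ± 30.5 against 1050 ± 23.4 CPM) lay with hda-4.

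NuRD joins a Mi-2 ATPase with a deacetylase, the related MEC complex joins one with MEP-1, and C. elegans has a pair of Mi-2 genes. The gene let-418 (WBGene00002637, WBcel235 chromosome V, 5826833 to 5832831, plus strand) was at 284, 375 and 245 CPM in control against 182, 231 and 197 CPM with CHE-1. All CHE-1 values were below all control values, by a narrow gap. The log2 fold change was -0.57 (SE 0.23, interval -1.08 to -0.06, adjusted p = 0.271), and no alternative called it. Its paralog chd-3 was at 242, 155 and 160 CPM in control against 238, 250 and 219 CPM with CHE-1, where control library 1 reached the CHE-1 range. The log2 fold change of chd-3 was 0.34 (SE 0.24, adjusted p = 0.739).

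The ratio of let-418 to chd-3 per kb, chosen after these values were seen, was 1.15, 2.38 and 1.51 in the controls against 0.7503, 0.909 and 0.886 under CHE-1. In every control library let-418 was thus the more abundant Mi-2 transcript per kb, and in every CHE-1 library chd-3 was. Both genes summed to 487 ± 71.3 CPM in control against 439 ± 36.4 CPM with CHE-1. The MEC partner mep-1 was at 193, 305 and 253 CPM in control against 244, 280 and 231 CPM with CHE-1 (log2 fold change 0.0071, SE 0.23). How the upstream estimate split reads between the related Mi-2 genes was not examined.

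**Figure D4:**
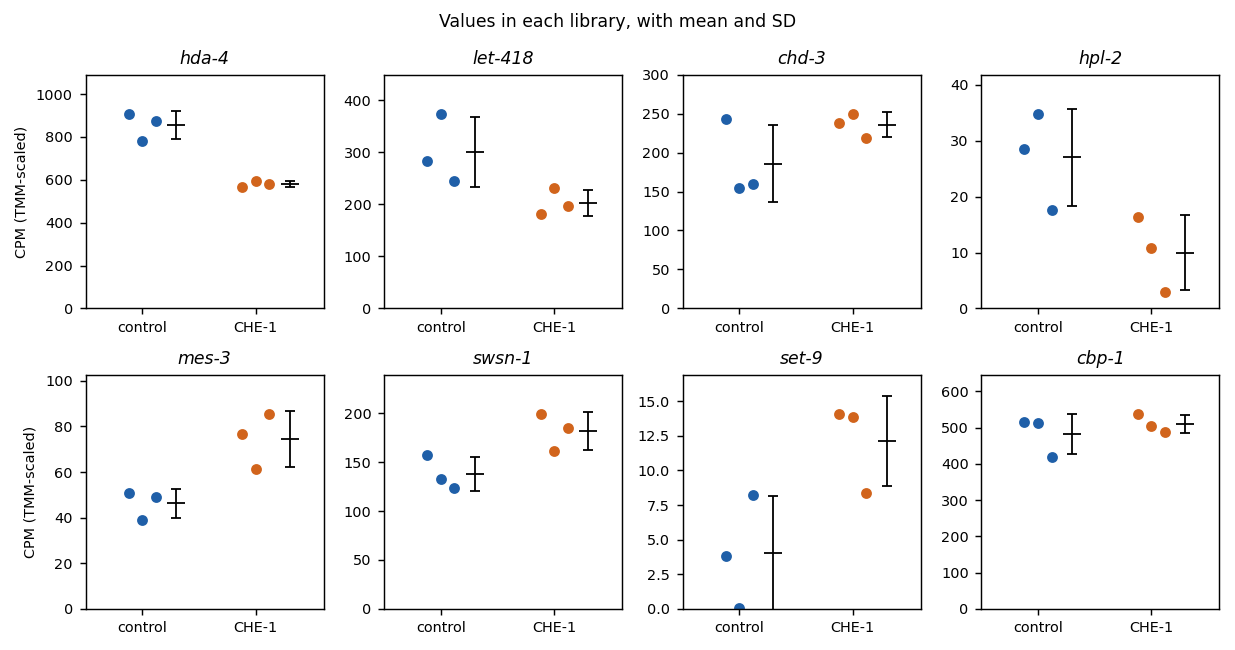
CPM of 8 chromatin genes in each control (blue) and CHE-1 (orange) library, with mean and SD in black on axes that start at 0 (the control SD bar of set-9 runs past 0 and ends at the axis). The groups are apart for hda-4, let-418, hpl-2, mes-3, swsn-1 and, narrowly, set-9, and overlap for chd-3 and cbp-1. The 8 genes shown include all 6 of the 49 tested members whose groups are apart (12.2%, against 23.4% of all tested genes).

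Acetyltransferases add the groups that deacetylases remove. The transcriptional coactivator gene cbp-1 was at 515, 514 and 419 CPM in control against 538, 504 and 487 CPM with CHE-1. The ranges overlapped, and the interval of the log2 fold change (0.08, SE 0.18) ran from -0.33 to 0.49. The MOZ-type gene lsy-12, known for its role in the left-right asymmetry of the ASE neurons, was at 138, 128 and 66.1 CPM in control against 116, 144 and 126 CPM with CHE-1. Its CHE-1 values lay around the upper control values, and the log2 fold change was 0.21 (SE 0.31). The TIP60-type gene mys-1 was at 23.2, 39.2 and 22.97 CPM in control against 56.2, 26.1 and 50.1 CPM with CHE-1. The log2 fold change, 0.63 with an SE of 0.46, missed the threshold (adjusted p = 0.769). The MOF-type gene mys-2 was at 25.0 ± 11.9 and 23.4 ± 5.71 CPM.

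SWI/SNF remodellers evict and slide nucleosomes through the ATPase SWSN-4. The core subunit gene swsn-1 was at 158, 132 and 124 CPM in control against 200, 161 and 185 CPM with CHE-1. The lowest CHE-1 library was just above the highest control library. The log2 fold change was 0.40 (SE 0.23, interval -0.11 to 0.91, adjusted p = 0.580). The ATPase gene swsn-4 was at 184, 110 and 86.6 CPM in control against 183, 131 and 95.9 CPM with CHE-1, nearly the same range. The gene pbrm-1, for the polybromo subunit of the PBAF form, was at 154 ± 37.9 and 197 ± 26.5 CPM (log2 fold change 0.36, SE 0.25). The gene let-526 was at 437 ± 16.2 and 487 ± 83.1 CPM, which is 66.1 ± 2.46 CPM per kb in control, and differed by 0.16 on the log2 scale (SE 0.20, adjusted p = 0.992). Outside these complexes, the SWR1/p400-type ATPase gene ssl-1 was at 357, 408 and 367 against 481, 345 and 388 CPM (log2 fold change 0.10, SE 0.20). The ISWI gene isw-1 was steady across libraries, at 45.5 ± 4.57 and 48.6 ± 2.27 CPM.

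H3K4 methylation marks active promoters and enhancers. The MLL3/4-like methyltransferase gene set-16 was at 180.4 ± 16.9 CPM in control against 194 ± 21.9 CPM with CHE-1, and the COMPASS enzyme gene set-2 at 67.0 ± 22.2 and 57.0 ± 1.69 CPM. Of the core subunits shared by these complexes, wdr-5.1 was at 45.6, 65.9 and 42.4 CPM in control against 52.2, 46.8 and 56.6 CPM with CHE-1. All CHE-1 values of wdr-5.1 lay inside the control range, and the interval of its log2 fold change (0.02, SE 0.35) was -0.75 to 0.78. The core subunit ash-2 was at 56.0 ± 13.6 and 52.4 ± 21.1 CPM, while rbbp-5 varied from 3.32 to 14.1 CPM in control and from 2.29 to 30.3 CPM in CHE-1 libraries.

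The paralogs set-9 and set-26 encode closely related proteins with SET and PHD domains that bind H3K4me3. Per kb, set-26 exceeded set-9 in all 6 libraries, by 7.92 to 16.4 times in the CHE-1 libraries. The gene set-26 was at 103 ± 28.7 CPM in control against 132 ± 21.6 CPM with CHE-1. The gene set-9 was at 3.81, 0.042 and 8.25 CPM in control against 14.1, 13.9 and 8.34 CPM with CHE-1. The highest control and the lowest CHE-1 library of set-9 nearly touched, and its log2 fold change of 1.58 had an SE of 1.79 (adjusted p = 0.9746) and ran from 0.93 without control library 2 to 2.61 without control library 3. Counts of these near-identical genes are uncertain, since the upstream estimate can split reads between them.

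PRC2 places H3K27 methylation, the mark of silenced genes, and in C. elegans consists of MES-2, the enzyme, with MES-3 and MES-6. Their transcripts were not at matched levels: mes-3 was at 14.8 ± 2.05 CPM per kb in control, mes-6 at 7.94 ± 3.48 and mes-2 at 3.60 ± 2.63. The gene mes-3 (WBGene00003221, WBcel235 chromosome I, 4996835 to 5003202, plus strand) was at 51.01, 39.1 and 48.9 CPM in control against 76.5, 61.3 and 85.5 CPM with CHE-1. All CHE-1 values were above all control values. Its log2 fold change was 0.68 (SE 0.32, interval -0.02 to 1.39, unadjusted p = 0.0559 and adjusted p = 0.375 by edgeR). The catalytic gene mes-2 was at 2.75, 15.7 and 8.31 against 0.136, 9.05 and 6.62 CPM, and mes-6 at 11.4, 19.8 and 8.65 against 0, 18.6 and 2.50 CPM. In CHE-1 library 1, the shallowest of its group, mes-2 had 3 counts and mes-6 none while mes-3 had 1689. The log2 fold changes of mes-2 and mes-6 were -0.76 (SE 1.87) and -0.92 (SE 1.79), so the higher PRC2 sum in the CHE-1 libraries (86.8 ± 9.20 against 68.6 ± 5.25 CPM) lay with mes-3. The value of mes-6 was -3.40 without CHE-1 library 2, -0.33 without CHE-1 library 1, -2.95 in limma-voom and 0.015 with both shallowest libraries left out. A gene on the same strand overlaps 491 bases of mes-6.

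H3K36 methylation marks transcribed gene bodies, and H3K79 methylation is made by DOT1 enzymes. The NSD-type gene mes-4, which maintains the mark on germline genes, was near the floor, with 163, 0 and 21 counts in control and 0, 1093 and 161 counts in CHE-1 libraries. A single CHE-1 library held most of these counts, at 17.4 CPM. For mes-4 the log2 fold change, 2.50 with an SE of 3.02, was 0.36 without that library and 5.00 without control library 1. The SETD2-type gene met-1 was at 75.3 ± 33.6 CPM in control, which is 13.4 ± 5.97 CPM per kb against 0.384 ± 0.559 for mes-4, and at 99.4 ± 19.5 CPM in CHE-1 libraries. The H3K79 methyltransferase gene dot-1.1 was at 148, 151 and 170 CPM in control against 111, 172 and 194 CPM with CHE-1. Its CHE-1 values lay on both sides of the control values (log2 fold change 0.03, SE 0.26).

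H3K9 methylation marks heterochromatin. The SETDB1-type gene met-2 was at 91.9, 96.4 and 51.8 CPM in control against 67.8, 61.0 and 49.1 CPM with CHE-1, and the groups overlapped (log2 fold change -0.43 with an SE of 0.34, adjusted p = 0.819). The gene set-25, whose product completes H3K9 methylation after MET-2, was at 7.34 ± 6.84 and 14.7 ± 7.22 CPM, with no count in control library 2. The related gene set-32 had 32 counts in control library 3 and none in any other library. A count of 0 allows up to 3 counts, which is 0.136, 0.0476 and 0.0572 CPM in the CHE-1 libraries. The H4K20 monomethyltransferase gene set-1 was at 13.5, 12.4 and 16.4 CPM in control against 41.2, 31.6 and 16.2 CPM with CHE-1. CHE-1 library 3 lay within the control range, and the log2 fold change was 1.07 (SE 0.61, interval -0.27 to 2.42, adjusted p = 0.562).

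Among the proteins that bind these marks, the HP1 homologue genes differed in spread. The gene hpl-2 (WBGene00001996, WBcel235 chromosome III, 10752195 to 10755530, minus strand) was at 28.5, 34.9 and 17.7 CPM in control against 16.3, 10.8 and 2.94 CPM with CHE-1. All CHE-1 values were below all control values, with a gap smaller than the spread within either group. The log2 fold change was -1.43 (SE 0.80, interval -3.19 to 0.32, adjusted p = 0.541). The paralog hpl-1 was at 10.7 ± 2.29 and 9.38 ± 4.03 CPM, with overlapping groups. The gene lin-13, whose zinc finger protein binds HPL-2, was the most abundant of this group per kb and was at 323, 310 and 223 CPM in control against 181, 337 and 249 CPM with CHE-1. The MBT-repeat gene lin-61 was at 18.7 ± 11.7 and 14.7 ± 2.02 CPM. The gene cec-4, which anchors H3K9-methylated chromatin at the nuclear envelope, was at 5.95, 5.12 and 10.6 CPM in control against 0.317, 0 and 5.70 CPM with CHE-1. CHE-1 library 3 lay within the control range, and the log2 fold change of -1.84 had an SE of 2.58. It was -5.52 without that library, -1.26 without CHE-1 library 2 and -4.99 in limma-voom. The log2 fold changes of all 5 genes of this group were negative (-1.84 to -0.16), and their summed level was 349 ± 61.5 CPM in control against 292 ± 70.3 CPM with CHE-1, with overlapping groups. The sign of lin-13 turned without CHE-1 library 1 (log2 fold change 0.040). For 10 other Polycomb and heterochromatin genes outside the list, the median log2 fold change was 0.05. Of these 0 were called by edgeR's quasi-likelihood test, against 5.06% of all tested genes.

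DREAM is the repressor complex of the retinoblastoma homologue LIN-35 with E2F, DP and the DNA-binding LIN-54. The 4 listed genes were low, at a summed 51.5 ± 6.03 CPM in control against 36.7 ± 9.82 CPM with CHE-1. The sums were 58.4, 49.0 and 47.2 CPM in control against 27.4, 47.0 and 35.8 CPM with CHE-1, apart by less than 1 CPM. Of other DREAM genes outside the list, lin-9, lin-37 and lin-52 had positive log2 fold changes of 0.58 (SE 0.74), 1.86 (SE 1.61) and 1.31 (SE 1.83), and none was called. The gene lin-53, whose product is shared with NuRD, had a negative log2 fold change of -0.14 (SE 0.44) and was not called either. The gene lin-35 was even across the control libraries, at 22.8 ± 2.03 CPM, and was at 19.6 ± 6.80 CPM in CHE-1 libraries. The E2F gene efl-1 was at 25.5, 4.91 and 13.2 CPM in control against 0, 8.67 and 1.43 CPM with CHE-1. Control library 2 lay inside the CHE-1 range, and the log2 fold change of -2.11 had an SE of 1.93 (adjusted p = 0.910). It was -4.33 without CHE-1 library 2, -1.49 without control library 1 and -4.24 in limma-voom. The DP gene dpl-1 was at 11.2 ± 8.28 and 8.11 ± 8.50 CPM, and lin-54 had 5 counts in control library 2 and none in CHE-1 library 1.

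**Figure D5:**
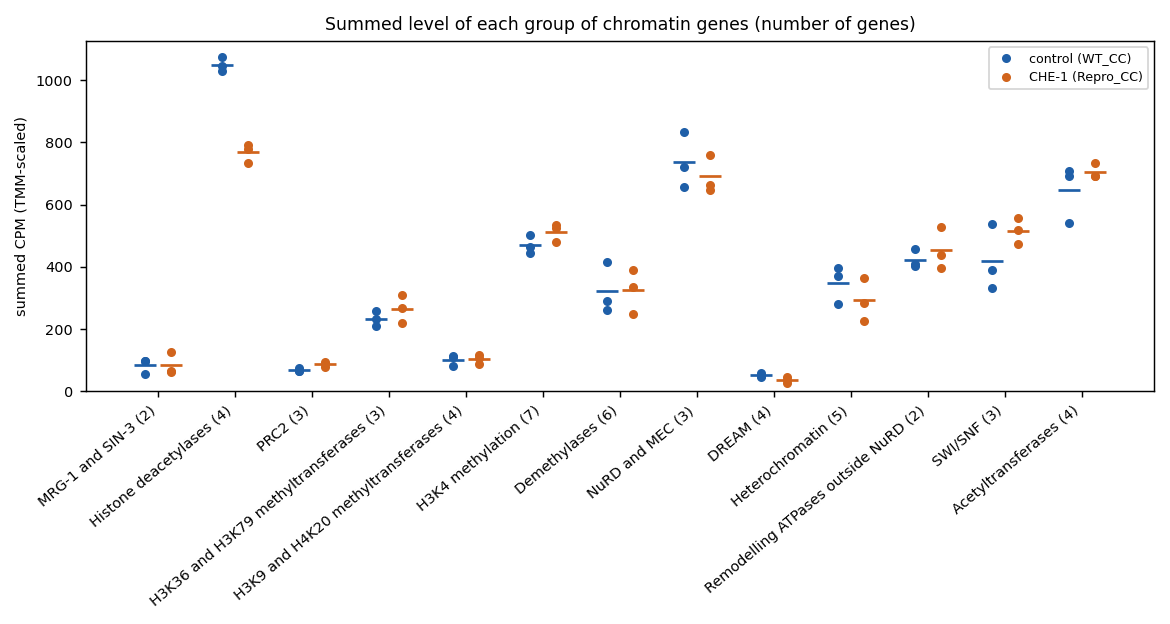
Summed CPM of each group of chromatin genes (number of genes in brackets) in each control (blue) and CHE-1 (orange) library, with the mean as a bar. The groups of libraries are apart for the deacetylases (lower, with hda-4), PRC2 (higher, with mes-3 alone of its 3 genes) and the 4 DREAM genes (lower), and overlap for the other 10 sets of genes. For single genes the groups were apart in 23.4% of all those tested.

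Demethylases remove these marks. The KDM5-type H3K4 demethylase gene rbr-2 was at 256, 112 and 126 CPM in control against 140, 171 and 159 CPM with CHE-1, so control library 1 lay above the CHE-1 range and the other two below it. The gene jmjd-2, for an H3K9 and H3K36 demethylase, was at 76.4 ± 6.58 and 91.6 ± 18.5 CPM. The H3K27 demethylase genes utx-1 and jmjd-3.1 were at 14.4 ± 1.27 and 30.0 ± 19.2 CPM in control. In CHE-1 libraries utx-1 was at 1.45, 15.98 and 14.8 CPM, low in the library with the fewest counts of its group, and jmjd-3.1 at 33.6 ± 14.8 CPM. Of the LSD1-type genes, spr-5 was at 33.4 ± 4.94 and 31.9 ± 23.04 CPM and was above lsd-1 per kb in all 6 libraries. The gene lsd-1 had 0, 176 and 151 counts in control against 0, 0 and 15 with CHE-1. With a control library also at 0, its log2 fold change of -5.098 (SE 3.85, adjusted p = 0.796) was not resolved, and leaving out 1 library moved it from -10.18 (without CHE-1 library 3) to -3.94 (without control library 2).

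The chromodomain gene mrg-1 and the scaffold gene sin-3 were both expressed. MRG-1 binds chromatin with H3K36 methylation, and SIN-3 holds a deacetylase complex together. The gene mrg-1 was at 20.0, 34.2 and 25.8 CPM in control against 21.4, 56.5 and 30.1 CPM with CHE-1. CHE-1 library 2 alone lay above the control range, and the log2 fold change of 0.43 (SE 0.51, adjusted p = 0.984) was -0.050 without it. The gene sin-3 was at 78.5, 61.4 and 29.7 CPM in control against 43.6, 68.8 and 31.2 CPM with CHE-1.

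CHE-1 library 1, the shallowest of its group, had 6 members at 0 (mes-6, mes-4, lsd-1, lin-54, efl-1 and the untested set-32). Of all tested genes 20.8% had no count in that library. Control library 2 had 3 members at 0 (mes-4, set-25 and the untested set-32), where 25.7% of tested genes had none. Control library 3 had 0 such members, where 1.76% of tested genes had none. In all, 42 of the 50 genes had a count in every library. The longest overlaps of a member's span with a gene on the other strand were those of dpl-1 (2656 bases), cec-4 (1609), lin-35 (1582) and isw-1 (1384). The libraries were strand-specific, per the series' design text, but no source used here gives the strand setting of the counting.

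Of 115 other chromatin genes listed from the same families, 110 were found and 91 tested. In edgeR's quasi-likelihood test 1 was higher (against 3.37% of all tested genes) and 1 lower (against 1.69%), with a median log2 fold change of 0.03. The higher gene was bet-2, a double bromodomain protein gene of the BET family (WBcel235 chromosome X, 10569273 to 10575725, plus strand), at 159, 106 and 105 CPM in control against 239, 294 and 293 CPM with CHE-1. Every CHE-1 library was above every control library (log2 fold change 1.16, SE 0.25, adjusted p = 0.0182). The adjusted p of bet-2 missed the threshold when control library 2 (0.0711) or 3 (0.1001), or CHE-1 library 2 (0.0671) or 3 (0.0520), was left out, and when both shallowest libraries were (0.0804). The lower gene was prmt-7, an arginine methyltransferase gene (WBcel235 chromosome I, 9060493 to 9063160, minus strand), at 118, 84.1 and 80.2 CPM in control against 44.7, 18.7 and 21.7 CPM with CHE-1. The groups did not overlap (log2 fold change -1.73, SE 0.41, adjusted p = 0.0332). That of prmt-7 missed it when control library 1 (0.0825) or 3 (0.0599), or CHE-1 library 2 (0.107) or 3 (0.0887), was left out. Both were also called by DESeq2, by limma-voom and with adjusted deviances.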

How the data were processed

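Polyadenylated RNA of sorted coelomocytes was measured in 6 libraries. The authors deposited estimated counts per gene as whole numbers, and the submitters' processing notes list Salmon 0.13.1, DESeq2 and the WBcel235 build without saying what each did. The step from transcripts to genes is not given here by any source. A second deposited table holds a normalized signal, the counts divided by 1 factor per library as its values show, and was not used for results.

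Symbols came from a gene name table (19626 of 21882 identifiers), and coordinates, overlaps and merged exon lengths from the Ensembl annotation of WBcel235 (21714 identifiers). The main comparison used the quasi-likelihood test in edgeR 4.0.16 in R 4.3.3 (robust, TMM factors, default filter by group with minimum count 10 and minimum total 15, two-sided). All adjusted p-values are Benjamini-Hochberg over all genes tested and are those of edgeR where no tool is named. CPM values are TMM-scaled. The SE was taken from the log2 fold change and its F statistic (size over root F), so it and the 95% intervals are approximate. The code was checked on simulated counts. Alternatives were DESeq2 1.42.0, limma-voom (limma 3.58.1), other edgeR settings, and leaving out libraries. The floor for a 0 is 3 counts and covers counting error only.

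Libraries are numbered in accession order, and nothing says that they came from separate cultures or sorts, so the p-values speak of the spread among these libraries alone, and that spread may be technical. No pair of libraries in a group agreed within sampling noise (lowest chi-square over its degrees of freedom 243). Members, lists and groups of genes were chosen with earlier results of these data known. Values in every library are given for members called by any of the 4 tests, for the most abundant (per kb) and most changed tested member of each group, for set-32, and for further members of the same groups chosen after their values were seen. Other chromatin genes are named where called, and lin-9, lin-37, lin-52 and lin-53 are named beside the DREAM members though not called. No sequences are shown.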

Additional observations from a re-analysis of the deposited data

How the results depend on the processing

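No paired analysis was possible because the labels give library names and no replicate number that the groups share, and neighbouring library names were not taken as pairs. Over all tested genes, 307 were higher and 154 lower; DESeq2 gave 685 and 412, limma-voom 520 and 294, edgeR with adjusted deviances 695 and 354 and edgeR without a count filter 474 and 255, and leaving out 1 library 234 to 347 and 113 to 179. The count of members called was 0 higher and 0 lower, also with each library left out, and 1 lower with DESeq2, limma-voom and upper-quartile factors, each time hda-4. The members' median log2 fold change of 0.03 became -0.12 with upper-quartile factors, which shifted the median of all genes by -0.14 as well. Relative to that median it was -0.01 and -0.02. Of the other chromatin genes, limma-voom called 2 lower (phf-10 beside prmt-7), 0 were higher without the shallowest library of each group, and leaving out 1 library gave 0 to 1 in each direction.

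The sign turned for 9 of the most abundant (per kb) and most changed members of each group. Only these members were followed under every alternative. Other members could turn as well, such as swsn-4 (log2 fold change 0.11, and -0.016 with upper-quartile factors). With upper-quartile factors the log2 fold change was -0.12 for dot-1.1 and wdr-5.1, -0.13 for mep-1, -0.031 for ssl-1 and -0.056 for cbp-1. That of mep-1 was -0.0019 in DESeq2 and -0.0021 with RLE factors. Without the shallowest library of each group it was 0.015 for mes-6, 0.047 for lin-13 and -0.045 for ssl-1. With each library left out it ran from -0.050 to 0.70 for mrg-1, -0.14 to 0.23 for dot-1.1, -0.13 to 0.17 for wdr-5.1, -0.35 to 0.35 for rbr-2, -0.19 to 0.10 for mep-1, -0.41 to 0.040 for lin-13, -0.042 to 0.20 for ssl-1 and -0.043 to 0.11 for cbp-1. The cause was not tested. Of 325 gene values under an alternative, 287 kept direction and side of the threshold. These values cover the members so followed together with bet-2, prmt-7 and unc-122, which are not members. Depth and spread limit the 16 members under 20 CPM most.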
